A study of Mus musculus with 6 samples.

Results

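The transcripts described here are those of 10 receptors through which mouse chondrocytes read bone morphogenetic proteins (BMPs), activins and transforming growth factors beta (TGF-beta). The members were chosen by name, as the genes *Bmpr1a*, *Bmpr1b*, *Bmpr2*, *Acvr1*, *Acvr1b*, *Acvr2a*, *Acvr2b*, *Tgfbr1*, *Tgfbr2* and *Tgfbr3*, and all 10 were found among the 22032 genes measured. RNA sequencing covered 6 samples of knee chondrocytes of mice for which no genetic change is named, 3 from embryos and 3 from adults of 2 months, which the submitters describe as biological replicates. The study's methods date the embryos to E16.5, whereas the labels of the same samples read 16.5 wks. Adult animals were males of the B6 strain, and the strain and sex of the embryos are not given in the sources used here. Cells of both stages were sorted as negative for alkaline phosphatase and for markers of endothelial and blood cells (CD31, CD45 and Ter119 in the adult animals) and as positive for BMPR1B, so that every level of *Bmpr1b* below was measured in cells selected for its protein. How many animals made up a sample is not stated, so the p-values measure the spread between these samples. The study set these mouse samples beside human chondrocytes, which are not analysed here, and the comparison between the stages below asks which receptor transcripts differed between them.

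Ligands of this family signal through paired serine and threonine kinases. A type II receptor, whose kinase is active on its own, binds the ligand together with a type I receptor and phosphorylates a glycine and serine rich stretch of it, the GS domain, which lies just before the type I kinase. The activated type I receptor then phosphorylates Smad proteins, Smad1, Smad5 and Smad9 under the BMP type I receptors and Smad2 and Smad3 under the activin and TGF-beta type I receptors, and these move with Smad4 to the nucleus. Betaglycan, encoded by *Tgfbr3*, has no kinase and presents ligand to the other receptors. In cartilage, BMP receptors are needed for chondrocytes to form and to proliferate, and TGF-beta receptors hold articular chondrocytes back from hypertrophy.

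The coding sequences of the members show these classes. They are printed for the 5 type I receptors (GENCODE M21, GRCm38, coding strand, 5′ to 3′, 54 bases each), since the stretch sets type I receptors apart from the others, and the capitals mark the 6 codons of the serine and glycine repeat of the GS domain.
Bmpr1a: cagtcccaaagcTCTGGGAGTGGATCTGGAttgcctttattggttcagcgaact
Bmpr1b: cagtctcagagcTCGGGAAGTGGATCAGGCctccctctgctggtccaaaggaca
Acvr1: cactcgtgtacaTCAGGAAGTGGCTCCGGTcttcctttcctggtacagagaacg
Acvr1b: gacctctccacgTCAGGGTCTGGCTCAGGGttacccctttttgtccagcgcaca
Tgfbr1: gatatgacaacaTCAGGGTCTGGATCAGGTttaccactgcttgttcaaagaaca
The repeat covers codons 216 to 221 of *Bmpr1a*, 186 to 191 of *Bmpr1b*, 190 to 195 of *Acvr1*, 189 to 194 of *Acvr1b* and 187 to 192 of *Tgfbr1*. In *Acvr1* the printed stretch lies within exon 6 of 11 (chr2:58474207-58474260, minus strand), and in the other 4 genes it crosses an exon junction. The coding sequences of the 4 type II receptors and of *Tgfbr3* do not hold the repeat. *Bmpr1a* and *Bmpr1b* were the most alike of the 36 pairs among the 9 receptors with a kinase, with 68.5% of the bases of the shorter coding sequence identical, followed by *Acvr1b* and *Tgfbr1* (67.3%) and by *Acvr2a* and *Acvr2b* (64.4%). None of the 10 genes shared a run of 50 bases, the length of the reads, with another member, and the share of such runs found in other annotated genes was at most 6.98% (*Acvr2a*, which shares them with *Orc4*).

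All levels are TPM (transcripts of a gene relative to all transcripts, corrected for transcript length), which sums to 1000000 in each sample and can be set side by side between genes. TPM carries no read depth. Differences are adult minus embryonic means of log2(TPM + 1), which understates the change of low genes, with the standard error (SE), the 95% confidence interval and the Benjamini-Hochberg adjusted p of limma, fitted to the 13125 genes whose mean reached 1 TPM. A gene was called at an adjusted p under 0.05. In samples of many cells, fewer cells that use a gene and less RNA in each of them cannot be told apart. All 6 samples held the defining transcripts of cartilage, and the 10 chondrocyte markers summed to between 27754 and 29620 TPM in embryonic and between 10175 and 13309 TPM in adult chondrocytes, with 7 of them called as lower and 2 as higher in the adult.

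The stages differed in 5 of the 10 receptors. Transcripts of *Bmpr2*, *Tgfbr1*, *Bmpr1a* and *Tgfbr2* were lower in adult chondrocytes and those of *Tgfbr3* were higher, whereas *Bmpr1b*, *Acvr1*, *Acvr1b*, *Acvr2a* and *Acvr2b* did not pass the test (limma). Among all genes tested 45.3% were called, 21.4% as lower and 23.9% as higher in the adult, beside 4 of 10 receptors lower and 1 of 10 higher. In 6 receptors the values of the stages did not overlap, in 5 of them with the adult below, against 56.5% and 25.9% of all genes. The median difference of the 10 receptors was -0.50 on the log2 scale and that of all genes was 0.16. After that median was subtracted the receptors' median was -0.66, and it lay between -0.67 and -0.50 as deposited and under 3 rescalings of the values. Without adult sample 1, the receptors' median difference was -0.28.

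**Figure D1:**
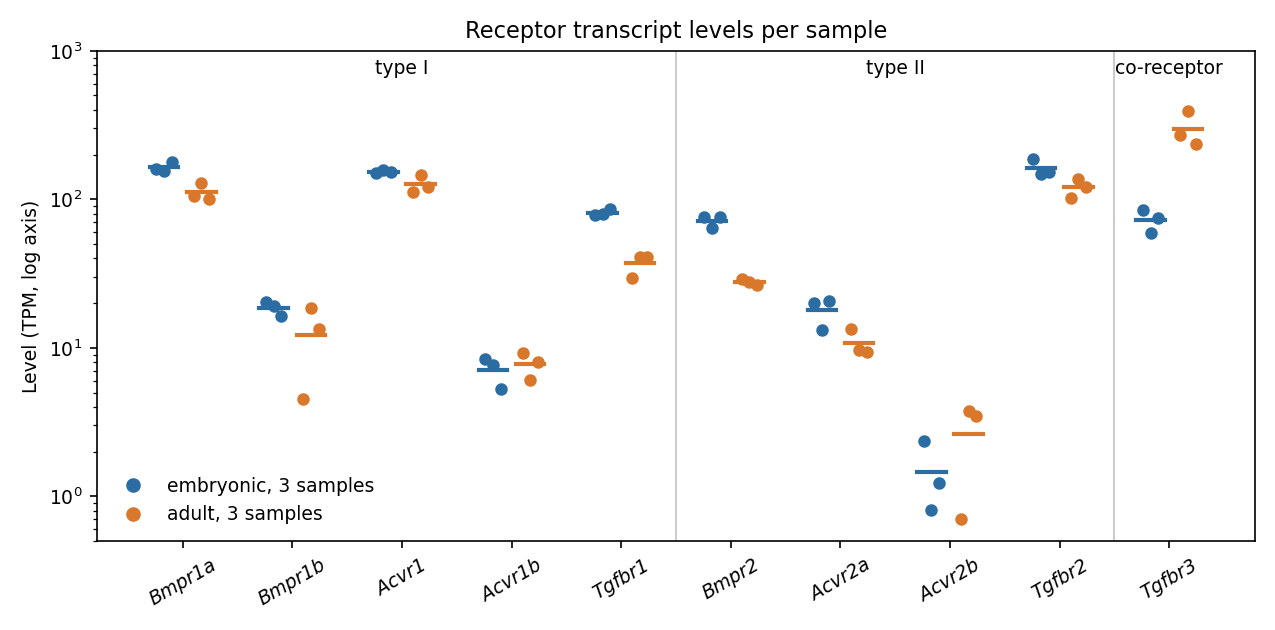
Level of each receptor in TPM on a log axis, in 3 embryonic samples (blue points) and 3 adult samples (orange points), with a line at the mean of each stage, and genes ordered by class. *Tgfbr3* is the gene with all adult points above all embryonic points, from 234 to 393 against 59.4 to 84.4 TPM. *Bmpr1b* and *Acvr2b* each have 1 adult point far below the other 2, at 4.51 and 0.705 TPM, both from adult sample 1.

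**Figure D2:**
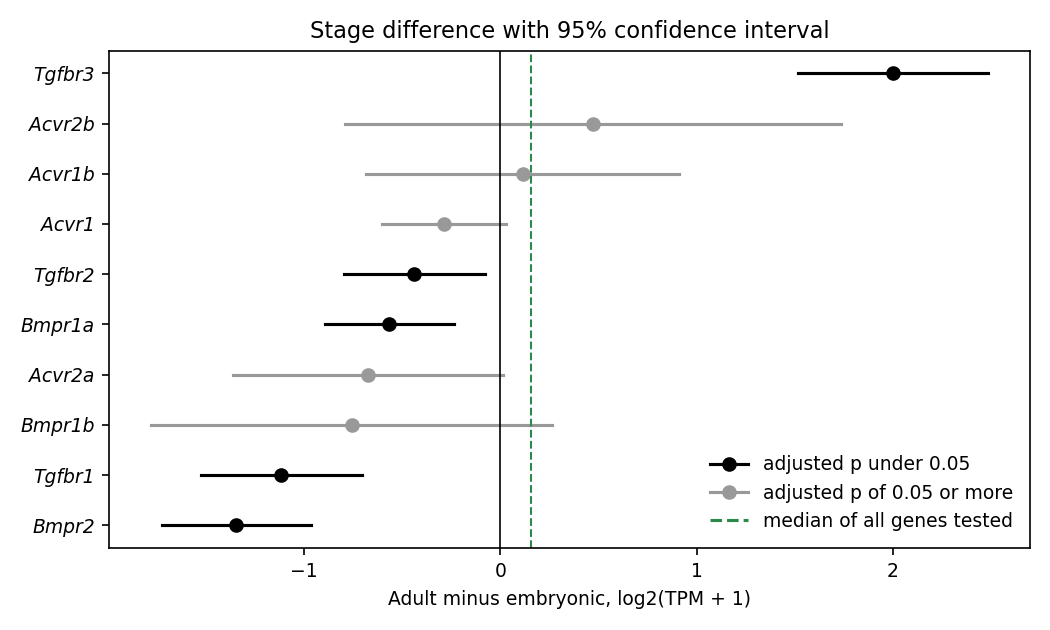
Adult minus embryonic difference of each receptor on the log2(TPM + 1) scale (points) with its 95% confidence interval (lines), black where the adjusted p was under 0.05 and grey otherwise, and the median of all genes tested as a dashed line at 0.16. The intervals of 4 genes lie wholly below 0 and are black, and that of *Tgfbr3* runs from 1.52 to 2.48.

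*Bmpr1a* (ENSMUSG00000021796, chr14:34410734-34503341, minus strand), the type I receptor that most tissues use for BMP2 and BMP4, stood at 160, 155 and 179 TPM in embryonic samples 1 to 3 against 105, 129 and 100 TPM in adult samples 1 to 3, the order in which values are given throughout. Every adult value was below every embryonic value. Its mean fell from 7.37 ± 0.11 to 6.81 ± 0.19 on the log2(TPM + 1) scale (SD, n = 3 each), a difference of -0.57 (SE 0.145, 95% confidence interval -0.89 to -0.24, adjusted p = 0.0124 by limma). The call was lost without embryonic sample 3 (adjusted p = 0.0546).

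*Bmpr1b* (ENSMUSG00000052430, chr3:141837136-142169425, minus strand) encodes the type I receptor of limb cartilage condensations, which binds GDF5, and its protein is the one the cells were sorted for. It was measured at 20.3, 19.0 and 16.4 TPM in embryonic chondrocytes against 4.51, 18.5 and 13.4 TPM in the adult samples. The stages overlapped, and adult sample 1 stood apart from the other adult samples. The difference was -0.76 (SE 0.450, interval -1.78 to 0.26, adjusted p = 0.199 by limma), and it was -0.22 without adult sample 1 and -1.13 without adult sample 2, with neither value called. In both stages the transcript of the sort marker was thus present at a much lower level than that of its nearest relative. The TPM of *Bmpr1a* was 7.89 to 10.9 times that of *Bmpr1b* in the embryonic samples, and 23.2, 7.01 and 7.52 times in the adult samples.

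The third BMP type I receptor, *Acvr1* (ENSMUSG00000026836, chr2:58388644-58567157, minus strand), encodes ALK2, mutations of which cause cartilage and bone to form in soft tissue. It stood at 150, 158 and 153 TPM in embryonic chondrocytes against 113, 147 and 120 TPM in adult ones. Although no adult value reached the embryonic range, the difference of -0.29 (SE 0.139, interval -0.60 to 0.03) was not called (adjusted p = 0.125 by limma). It was called in 2 of 15 alternatives, under median-of-ratios scaling and without adult sample 2.

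Of the activin and TGF-beta type I receptors, 1 of 2 was called. *Tgfbr1* (ENSMUSG00000007613, chr4:47353222-47414931, plus strand), which encodes ALK5, the main type I receptor for TGF-beta, stood at 78.3, 79.3 and 85.4 TPM in embryonic chondrocytes against 29.6, 41.1 and 41.0 TPM in the adult samples. It fell by 1.12 on the log2 scale (SE 0.180, interval -1.52 to -0.71, adjusted p = 0.00130 by limma), and its embryonic mean TPM was 2.18 times the adult one. *Acvr1b* (ENSMUSG00000000532, chr15:101174067-101213684, plus strand), which encodes ALK4, the type I receptor for activin, was measured at 8.39, 7.66 and 5.32 TPM in embryonic chondrocytes against 9.20, 6.11 and 7.99 TPM in the adult samples. Its stages overlapped, its difference was 0.11 (interval -0.68 to 0.91, adjusted p = 0.810 by limma), and the sign turned in 4 of 15 alternatives, of which 2 rescaled the values.

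Of the type II receptors, *Bmpr2* (ENSMUSG00000067336, chr1:59763400-59879014, plus strand), the type II receptor dedicated to BMPs and GDFs, had the largest fall. It stood at 75.6, 64.1 and 76.1 TPM in embryonic chondrocytes against 28.9, 27.8 and 26.3 TPM in the adult samples, with the stages far apart and each of them tight. The mean fell from 6.18 ± 0.14 to 4.84 ± 0.07 on the log2(TPM + 1) scale (SD, n = 3 each), by 1.34 (SE 0.167, interval -1.72 to -0.97, adjusted p = 0.000315 by limma). Its embryonic mean TPM was 2.60 times the adult mean.

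*Tgfbr2* (ENSMUSG00000032440, chr9:116084293-116175360, minus strand), the type II receptor for TGF-beta, stood at 188, 148 and 152 TPM in embryonic chondrocytes against 103, 136 and 122 TPM in adult ones. The stages did not overlap, and the difference was -0.44 (SE 0.158, interval -0.80 to -0.08, adjusted p = 0.0497 by limma). This call lay at the threshold and held in 4 of 15 alternatives, with adjusted p-values between 0.0136 and 0.176 over all of them and a negative difference in each. It was lost without each of embryonic samples 1, 2 and 3 and adult samples 1 and 3 (adjusted p = 0.176, 0.0708, 0.0870, 0.125 and 0.0745 by limma).

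Both activin type II receptors, which also serve several BMPs, were among the lower of the 10 receptors. *Acvr2a* (ENSMUSG00000052155, chr2:48814109-48903269, plus strand) was measured at 20.1, 13.1 and 20.6 TPM in embryonic chondrocytes against 13.3, 9.71 and 9.34 TPM in the adult samples. Adult sample 1 overlapped the embryonic range, and the difference was -0.67 (SE 0.303, interval -1.36 to 0.01, adjusted p = 0.0998 by limma). *Acvr2b* (ENSMUSG00000061393, chr9:119402118-119434995, plus strand) was the lowest receptor of both stages, at 2.36, 0.805 and 1.23 TPM in embryonic chondrocytes against 0.705, 3.76 and 3.45 TPM in the adult samples. Its interval was the widest of the 10, from -0.79 to 1.74 around a difference of 0.47 (adjusted p = 0.514 by limma), and the difference was 0.95 without adult sample 1 and 0.21 without adult sample 2, with neither value called.

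*Tgfbr3* (ENSMUSG00000029287, chr5:107106570-107289629, minus strand), the betaglycan gene, was the only one of the 10 receptors called as higher in the adult. It stood at 84.4, 59.4 and 74.7 TPM in embryonic chondrocytes against 269, 393 and 234 TPM in adult ones, so that the lowest adult sample was well above the highest embryonic one. The mean rose from 6.19 ± 0.25 to 8.19 ± 0.38 on the log2(TPM + 1) scale (SD, n = 3 each), by 2.00 (SE 0.213, interval 1.52 to 2.48, adjusted p = 0.000137 by limma). The adult mean TPM was 4.10 times the embryonic mean. Among the 13125 genes tested, its mean level was at percentile 79.3 in the embryonic samples and at percentile 96.3 in the adult samples. The calls of *Tgfbr3*, *Bmpr2* and *Tgfbr1* held in all 15 alternatives, those with a sample left out included.

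**Figure D3:**
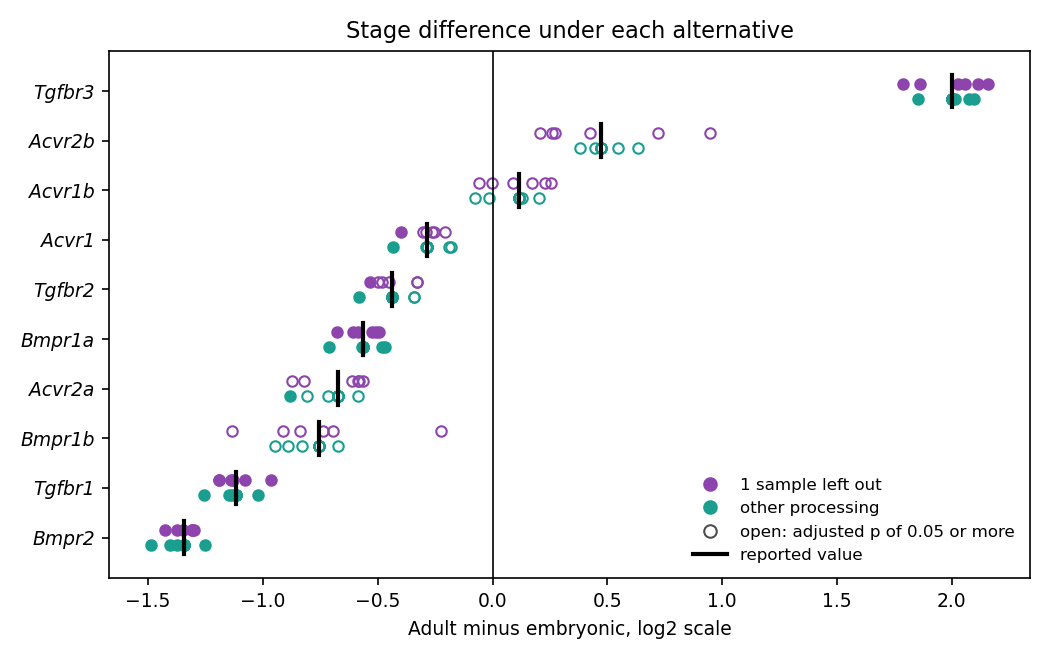
Adult minus embryonic difference of each receptor on the log2 scale as reported (black bar) and under each alternative, with 1 sample left out (purple) or with other processing (green), filled where the adjusted p was under 0.05 and open otherwise. All points of *Bmpr2*, *Tgfbr1* and *Tgfbr3* are filled, most points of *Tgfbr2* are open, and the points of *Bmpr1b* reach from -1.13 to -0.22.

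The order of the levels differed between the stages. In the embryonic samples *Bmpr1a* (mean 165 TPM), *Tgfbr2* (163 TPM) and *Acvr1* (154 TPM) came first, with overlapping values. They were followed by *Tgfbr1* (81.0 TPM), *Tgfbr3* (72.8 TPM) and *Bmpr2* (72.0 TPM), of which *Tgfbr3* overlapped both others while *Tgfbr1* was above *Bmpr2* in all samples, then by *Bmpr1b* (18.6 TPM) and *Acvr2a* (17.9 TPM), again overlapping, and last by *Acvr1b* (7.13 TPM) and *Acvr2b* (1.47 TPM), each below the lowest value of the gene before it. In the adult samples *Tgfbr3* (299 TPM) stood alone at the top. *Acvr1* (127 TPM), *Tgfbr2* (120 TPM) and *Bmpr1a* (112 TPM) overlapped behind it, *Tgfbr1* (37.2 TPM) and *Bmpr2* (27.7 TPM) had values apart from each other and from their neighbours, and the 4 receptors at the bottom kept their embryonic order, by mean *Bmpr1b* (12.1 TPM), *Acvr2a* (10.8 TPM), *Acvr1b* (7.76 TPM) and *Acvr2b* (2.64 TPM), although *Bmpr1b* overlapped both *Acvr2a* and *Acvr1b* and lay below *Acvr1b* in adult sample 1.

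As a share of the summed TPM of the 10 receptors, *Tgfbr3* made up 8.43% to 10.7% in embryonic and 34.6% to 43.1% in adult chondrocytes. The 5 type I receptors made up 53.0% to 59.5% in embryonic and 37.5% to 41.7% in adult samples. Type II receptors took 32.1% to 36.3% and 19.5% to 23.7%. These shares sum to the whole, so the share of one class falls when that of another rises. The summed level of all 10 receptors overlapped between the stages, at 705 to 788 TPM in embryonic and 675 to 912 TPM in adult chondrocytes. Only with *Tgfbr3*, the 1 member called as higher, left out did the sums stand apart. The other 9 receptors summed to 646 to 703 TPM in embryonic chondrocytes against 406 to 519 TPM in adult ones.

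**Figure D4:**
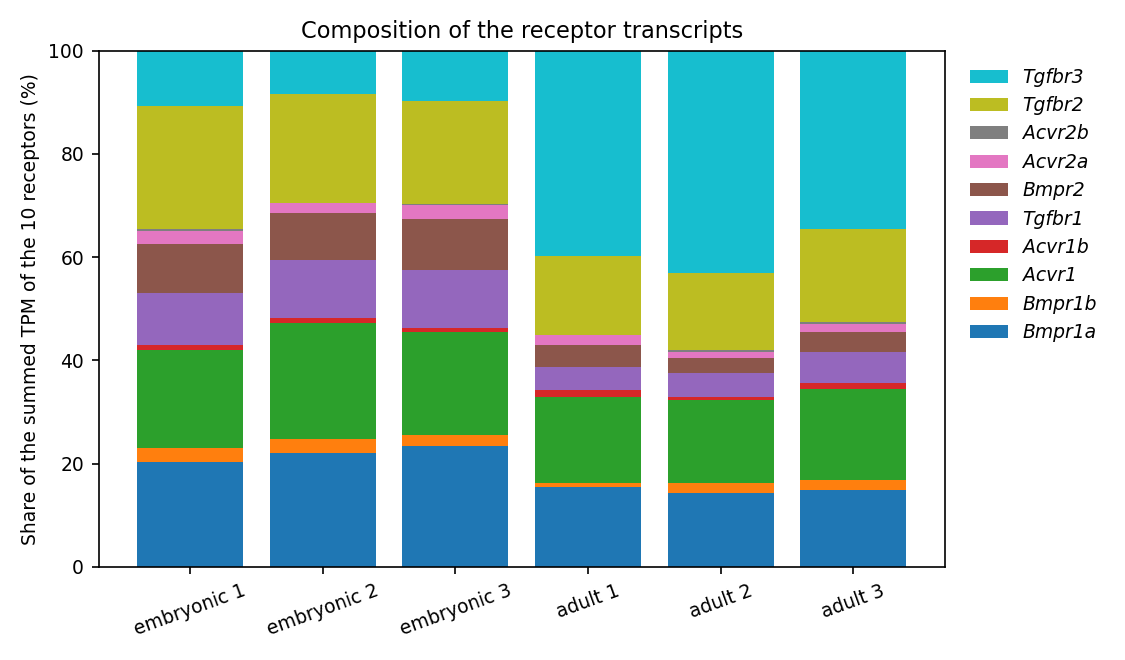
Share in percent of each receptor in the summed TPM of the 10 receptors, as 1 stacked bar for each of the 6 samples. The top segment, *Tgfbr3*, covers 8.43% to 10.7% of the embryonic bars and 34.6% to 43.1% of the adult bars.

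The log2 ratios (of TPM + 1) of 4 pairs of receptors within a sample were compared by exact two-sided permutation tests, which cannot give a p under 0.1 with 3 samples against 3. The TPM of *Tgfbr1* was 0.416, 0.534 and 0.560 times that of its type II partner *Tgfbr2* in the embryonic samples and 0.289, 0.302 and 0.336 times in the adult samples. These ratios did not overlap between the stages (difference -0.68 on the log2 scale, exact p = 0.1, adjusted p = 0.2 over 4 pairs, n = 3 each). Between type II receptors that BMPs can use, *Bmpr2* was 3.77, 4.89 and 3.69 times *Acvr2a* in the embryonic samples and 2.17, 2.86 and 2.81 times in the adult samples, again without overlap (difference -0.67, exact p = 0.1, adjusted p = 0.2, n = 3 each). The ratios of *Bmpr1a* to *Bmpr1b* (difference 0.19, exact p = 1.0, n = 3 each) and of *Acvr2a* to *Acvr2b* (difference -1.14, exact p = 0.3, n = 3 each) overlapped between the stages.

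Markers of other cell types were measured beside these results, and their part in them was not tested. The 6 tendon and fibroblast markers summed to 618 to 811 TPM in the embryonic and 209 to 302 TPM in the adult samples, with 3 called as lower and 3 not called. Of the lower ones, the tendon gene *Tnmd* stood at 262, 108 and 162 TPM in embryonic chondrocytes against 0, 2.11 and 0.703 TPM in the adult samples. *Pdgfra*, which was not called, stood at 210 to 286 TPM in embryonic and 145 to 258 TPM in adult chondrocytes. The 6 osteoblast markers summed to 4922 to 6007 TPM and 553 to 1069 TPM, a sum carried by *Col1a1* (4862 to 5971 TPM and 170 to 637 TPM), while 3 of the 6 were called as higher in the adult and 2 as lower. Of the higher ones, *Ibsp* stood at 0.148, 29.6 and 5.07 TPM against 316, 235 and 308 TPM, and *Bglap*, the osteocalcin gene, was listed at 0 in all 3 embryonic samples, against 26.8, 15.8 and 83.9 TPM. The 6 mural markers summed to 347 to 373 TPM and 178 to 192 TPM, with 1 called as higher and 4 as lower. The 8 leukocyte markers summed to 9.80 to 18.7 TPM and to 400 to 477 TPM, of which *Cd14* alone made up 357 to 458 TPM in the adult samples, and *Cd68* was at 4.22 to 12.6 TPM in embryonic and 17.2 to 33.3 TPM in adult chondrocytes. These 2 leukocyte markers were called as higher in the adult, whereas *Ptprc*, which encodes CD45, was at 2.29 TPM or less in every sample and *Cd3e* was at 0. The 8 endothelial markers (12.8 to 39.0 TPM and 7.29 to 19.4 TPM), 6 erythroid markers (7.77 to 257 TPM and 11.9 to 43.6 TPM) and 6 muscle markers (1.14 to 16.1 TPM and 0.870 to 7.72 TPM) overlapped between the stages in their sums. *Alpl*, the other osteoblast marker called as higher, which encodes the alkaline phosphatase used to gate cells out, stood at 15.4, 14.4 and 17.9 TPM in embryonic chondrocytes against 38.6, 32.7 and 36.0 TPM in adult ones, and it rose by 1.13 on the log2 scale (adjusted p = 0.00292 by limma).

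The other receptors and co-receptors of the family were mostly low or did not pass the test. Of 11 such genes 9 were tested, and 1 rose, 1 fell and 7 did not pass, while 45.3% of all genes were called. *Neo1*, which encodes neogenin, a receptor for the repulsive guidance molecules that act as BMP co-receptors, stood at 57.7, 42.7 and 56.7 TPM in embryonic chondrocytes against 101, 134 and 98.3 TPM in the adult samples, and it rose by 1.07 on the log2 scale (adjusted p = 0.00202 by limma). *Acvrl1*, which encodes ALK1, the type I receptor best known from endothelial cells, was at 12.3, 7.64 and 15.2 TPM in embryonic chondrocytes against 2.59, 0.945 and 0 TPM in the adult samples, and it fell by 2.68 (adjusted p = 0.00419 by limma). The endothelial receptor *Tek* was at 9.21, 9.24 and 19.0 TPM in embryonic chondrocytes against 0.121, 0.792 and 0.889 TPM in the adult samples. *Pecam1* was at 1.29 to 1.75 TPM and 2.79 to 6.87 TPM. Of the 8 endothelial markers 4 were tested, of which *Tek* alone was called, as lower, and 3 did not pass. The ALK1 partner endoglin (*Eng*) was measured at 32.1 to 39.2 TPM and 34.1 to 59.9 TPM, which overlapped (difference 0.28, adjusted p = 0.360 by limma). *Rgma*, *Rgmb*, the decoy receptor *Bambi*, *Acvr1c*, *Amhr2* and *Tgfbr3l* did not pass the test either, *Hjv* was under the filter, and *Tdgf1* was listed at 0 in all 6 samples.

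Downstream of the receptors, 1 of 6 receptor Smads and common Smads was called, beside 45.3% of all genes. *Smad1*, a substrate of the BMP type I receptors, stood at 90.0, 71.6 and 91.8 TPM in embryonic chondrocytes against 23.6, 23.3 and 15.8 TPM in the adult samples, and it fell by 1.98 (adjusted p = 0.000152 by limma). Of 18 proteins that bind, present, ubiquitinate or otherwise act next to the receptors, 8 rose, 3 fell and 7 did not pass, where 23.9% of all genes were called as higher and 21.4% as lower. The rises were led by *Tgfbrap1*, which encodes a protein that binds the TGF-beta receptors (log2 difference 1.65), *Dab2*, an endocytic adaptor (1.43), and the ubiquitin ligase *Nedd4l* (1.28), which lost its call without the filter on low values (adjusted p = 0.0521). Falls were measured in the deubiquitinase *Usp11* (-1.39), *Tab2*, an adaptor of the kinase TAK1 (-0.85), and *Strap*, which binds TGF-beta receptors (-0.70, all with adjusted p under the threshold by limma). *Usp11* lost its call in 6 of 15 alternatives.

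Of 14 ligands tested, 3 were called as higher and 7 as lower in the adult, against the same 23.9% and 21.4% of all genes. *Tgfb1* was at 51.6 to 61.8 TPM in embryonic and at 131 to 152 TPM in adult chondrocytes (difference 1.31, adjusted p = 0.000156 by limma), and *Bmp5* (1.15) and *Bmp2* (0.52, called in 7 of 15 alternatives) were higher as well. *Bmp4* was at 121 to 148 TPM in embryonic and at 15.3 to 17.4 TPM in adult chondrocytes (difference -2.97, adjusted p = 4.23e-06 by limma). *Gdf10* (-2.84) and *Gdf5* (-2.68), a ligand of joints that binds BMPR1B, had the next largest falls in log2 difference. Unlike *Tgfb1*, the TGF-beta ligands *Tgfb3* (-2.37) and *Tgfb2* (-2.12) were also called as lower. The median difference was -1.57 for the ligands, -0.12 for the Smads, 0.51 for the proteins next to the receptors and -0.33 for the other receptors and co-receptors, beside 0.16 for all genes. The median of the ligands moved with the filter and the pseudocount. It was -0.92 without the filter on low values, -2.13 where a mean of 5 TPM was required and -2.04 with a pseudocount of 0.1. The medians of the short lists depended on single samples. That of the Smads was 0.033 without adult sample 1, -0.24 without adult sample 2 and -0.18 without adult sample 3, and that of the other receptors and co-receptors was -0.062 without embryonic sample 3 and -0.055, -0.17 and -0.55 without adult samples 1, 2 and 3.

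**Figure D5:**
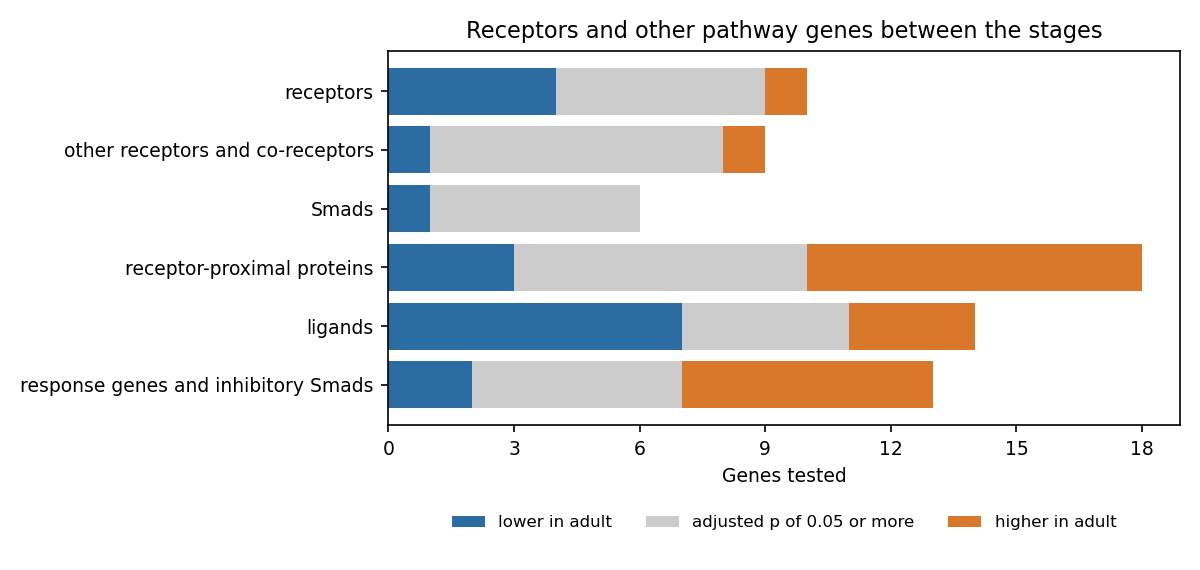
Number of genes tested in each list (horizontal axis), divided into those called as lower in the adult (blue), not called (grey) and called as higher in the adult (orange). Of the receptors 4 are blue and 1 is orange, of the ligands 7 and 3, and of the proteins next to the receptors 3 and 8.

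Reference promoters were read for the members from RefSeq (GRCm38.p6, 250 bases before to 50 after an annotated start), and 12 promoters of 9 members were matched. *Bmpr1a* and *Bmpr1b* are printed because the level of *Bmpr1a* was above that of its nearest relative in every sample, and the capitals mark every CG pair.
Bmpr1a, chr14:34502497-34502796, minus strand: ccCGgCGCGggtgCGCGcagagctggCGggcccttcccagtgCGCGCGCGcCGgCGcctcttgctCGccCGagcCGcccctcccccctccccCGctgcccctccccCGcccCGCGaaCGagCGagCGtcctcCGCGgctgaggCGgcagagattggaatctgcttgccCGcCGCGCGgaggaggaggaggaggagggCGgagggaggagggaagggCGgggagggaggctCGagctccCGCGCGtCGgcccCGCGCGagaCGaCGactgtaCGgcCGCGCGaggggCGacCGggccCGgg
Bmpr1b, chr3:141982215-141982514, minus strand: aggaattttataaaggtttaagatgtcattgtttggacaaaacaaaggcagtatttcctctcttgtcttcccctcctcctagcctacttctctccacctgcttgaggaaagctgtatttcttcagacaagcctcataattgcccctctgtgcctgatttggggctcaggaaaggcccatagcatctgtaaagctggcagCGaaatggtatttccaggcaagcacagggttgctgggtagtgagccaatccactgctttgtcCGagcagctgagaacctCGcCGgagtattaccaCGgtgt
The promoter of *Bmpr1a* holds 48 CG pairs, at percentile 98.8 of 32851 promoters of the same length. The 3 of *Bmpr1b* hold 5, 6 and 6 (percentiles 38.0, 43.6 and 43.6), and the last 2 of them overlap. All 3 lie well inside *Bmpr1b* as annotated by GENCODE, which begins at chr3:142169425 on the minus strand. The promoter at that outermost start was not among those read, so its CG content is not known here. The median of all promoters is 7. *Acvr2a*, *Acvr1* and *Acvr1b* hold 54, 51 and 51, so that both high and low receptors are among those rich in CG pairs. The BMP response element GGCGCC, which reads the same on both strands, occurs in a promoter of *Bmpr1a*, *Acvr1b*, *Tgfbr1* and *Bmpr2* and in 11.9% of all promoters. The element itself holds a CG pair, and these promoters hold 48, 51, 34 and 23 CG pairs. Its occurrence was not compared with promoters of like CG content, so no enrichment can be read from it. The Smad binding element GTCTAGAC, also a palindrome, occurs in none of the 12 and in 0.213% of all promoters.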

How the data were processed

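Chondrocytes of the knee were sorted by the authors from 3 embryonic and 3 adult mouse samples, and RNA was extracted with a Qiagen Micro kit. The labels name a Kapa mRNA-Seq kit, and the study's methods name amplification from random and poly(T) primers before a Kapa library and single-end reads of 50 bases. Per the labels, reads were assigned with RSEM on GRCm38 (versions of RSEM not given in the sources used here), and the authors deposited log2(TPM + 1) per Ensembl gene, 1 column per sample. The methods name RefSeq annotations. Taken back from the log2 scale to TPM, the deposited values sum to 1000000 in each sample. Depth is thus unknown to the values, and precision rests on the spread between samples.

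Symbols and positions were taken from GENCODE M21 (21902 identifiers with a symbol, 130 without, 3 symbols shared), and older symbols from RefSeq. The stages were compared with limma 3.58.1 in R 4.3.3 (lmFit, eBayes with a trend) on log2(TPM + 1) without other terms, keeping genes whose mean reached 1 TPM, and calls were made where the Benjamini-Hochberg adjusted p was under 0.05. The methods name EBSeq, which needs counts and was not used here. Pair ratios were compared by exact permutation tests (scipy 1.17.1), and sequences were aligned with Biopython 1.88. The fit was tested on simulated data. The alternatives changed the pseudocount (0.1), the filter (none, or a mean of 5 TPM), the scaling (quantile normalization, median of ratios, or TPM recomputed after removal of the 20 highest genes), the variance model (no trend, or robust), the samples (each left out in turn), the block (replicate number) and the threshold (0.01). All 10 receptors were named. Of the pathway lists, the 3 largest rises and the 3 largest falls among the called genes of each were named, and any gene of the other receptors and co-receptors. *Tek*, *Pecam1*, *Tnmd*, *Pdgfra*, *Cd14*, *Ptprc*, *Cd3e*, *Cd68*, *Col1a1*, *Ibsp*, *Bglap* and *Alpl* were chosen after their values were seen. So were *Tgfb2* and *Tgfb3* among the ligands, and *Smad3*, *Smad9* and *Id1* to *Id4* in the closing section. The members, lists and tests were chosen with earlier results of these data known.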

Additional observations from a re-analysis of the deposited data

How the results depend on the processing

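Over the alternatives that used the same threshold and all samples, between 3 and 6 of the 10 receptors were called, against 5 as reported. The lowest of these counts, 3, came from eBayes without trend, which lost *Bmpr1a* (adjusted p = 0.0518 by limma) and *Tgfbr2* (0.129). At a threshold of 0.01 the receptors called numbered 3 and all genes called 3718 instead of 5949. With 1 sample left out at a time, the receptors called ranged from 3 (without embryonic sample 3, which lost *Bmpr1a* and *Tgfbr2*) to 6 (without adult sample 2, which added *Acvr1*, adjusted p = 0.0450) and all genes called ranged from 4604 to 5617. *Acvr1* was also called under median-of-ratios scaling (0.0339), and *Acvr2a* under quantile normalization (0.0415). Median-of-ratios scaling moved the median difference of all genes from 0.16 to 0.03. The difference of *Acvr1b* turned to -0.076 under quantile normalization and -0.016 under median-of-ratios scaling, and it ranged from -0.058 to 0.26 with 1 sample left out, below 0 without embryonic sample 3 and without adult sample 1 (-0.0036). The difference of the *Bmpr1a* to *Bmpr1b* log2 ratio ranged from -0.30 (without adult sample 1, exact p = 0.2, n = 3 and 2) to 0.46 with 1 sample left out, that of *Acvr2a* to *Acvr2b* from -1.77 to -0.82, that of *Tgfbr1* to *Tgfbr2* from -0.81 to -0.60 and that of *Bmpr2* to *Acvr2a* from -0.74 to -0.55. The cause of these shifts was not tested.

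The replicate numbers in the titles did not pair the samples. Deviations from the stage means of samples with the same number correlated at -0.0223 to -0.00884 across 13125 genes, and no sample correlated best with the sample of its own number. With the replicate number as a block, 5430 genes were called and 4 receptors, *Tgfbr2* not among them (adjusted p = 0.0969 by limma). *Acvr2b* was not tested where a mean of at least 5 TPM was required.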

Other observations

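Response genes and inhibitory Smads, which lie downstream of these receptors, were read from the same fit. Of 13 such genes 6 were called as higher in the adult, 2 as lower and 5 did not pass, where 23.9% of all genes were called as higher and 21.4% as lower. The median difference was 0.72 on the log2 scale beside 0.16 for all genes, but 0.32 without adult sample 2 and 0.24 where a mean of 5 TPM was required. *Msx1*, a homeobox gene that BMPs induce in the limb, stood at 0.952, 3.51 and 1.61 TPM in embryonic chondrocytes against 35.2, 36.6 and 15.4 TPM in the adult samples (difference 3.31, adjusted p = 0.000659 by limma). *Atoh8* (1.68) and *Smad6* (1.30), which encodes an inhibitor of BMP receptor signals, were the next largest rises. *Smad7*, which encodes an inhibitor of both BMP and TGF-beta receptors, went the other way, at 220 to 243 TPM in embryonic and at 81.7 to 116 TPM in adult chondrocytes (difference -1.19, adjusted p = 0.000452 by limma), as did *Ski* (-1.17), a repressor of Smad complexes. The inhibitory Smads thus moved in opposite directions. *Id1*, *Id2* and *Id3*, targets of BMP receptors in most cells, overlapped between the stages in all 3 cases, with intervals of -0.80 to 0.27, -0.59 to 0.11 and -0.59 to 0.05. *Id4* was called as higher in the adult (difference 0.84, adjusted p = 0.00338 by limma). It stood at 28.9 to 30.5 TPM in embryonic and at 51.6 to 56.3 TPM in adult chondrocytes. *Smad3*, a substrate of the TGF-beta type I receptor, had adult values (60.7 to 71.3 TPM) below its embryonic ones (74.2 to 105 TPM). Its adjusted p was 0.0515 by limma, and it was called in 4 of 15 alternatives. *Smad9* went the other way, with adult values (7.29 to 14.9 TPM) above its embryonic ones (1.89 to 5.80 TPM). Its difference was 1.12 (adjusted p = 0.0771 by limma), and it was called in none of 15 alternatives.

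By the Euclidean distance between log2(TPM + 1) values over the 6 samples, each gene centred on its own mean, the genes with a pattern most like that of *Tgfbr3* were *Scin* (0.24), *Orai2* (0.29) and *Lactb2* (0.36), beside a median distance of 2.62 over all genes tested. Nearest to *Bmpr2* were *Khdrbs1* (0.16), *Arih2* (0.16) and *Calu* (0.16), beside a median of 2.24. Nearest to *Bmpr1b* were *Prmt6* (0.35), *Galnt18* (0.42) and *Rnf25* (0.44), beside a median of 2.23. Each of these 3 was also lowest in adult sample 1, at 2.86, 11.1 and 11.3 TPM. The distance selects for this, because *Bmpr1b* itself was lowest in that sample. Among the receptors themselves the closest pairs were *Acvr1* and *Tgfbr2* (0.38), *Bmpr1a* and *Acvr1* (0.40) and *Bmpr1a* and *Tgfbr2* (0.43).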
